A study of Mus musculus with 6 samples.

Results

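The receptors, junction proteins and ligand through which blood vessels are built were examined in embryoid bodies (EBs) with and without functional EVX1. The group holds 10 genes, taken by symbol from the 23353 genes of the deposited table (a choice made with earlier results of these data known): the ligand gene *Vegfa*, the VEGF receptors *Kdr* (Flk1) and *Flt1*, the TIE receptors *Tek* and *Tie1*, the co-receptor *Eng*, and the junction genes *Cdh5*, *Pecam1*, *Esam* and *Cldn5*. All 10 passed the filter on low values, which kept 13136 genes. EBs are clusters of differentiating embryonic stem cells grown in suspension. The wildtype group was the parental, unedited W9.5 line of mouse embryonic stem cells (mESCs). The EVX1-Δfs group was clone 14, derived from W9.5 with CRISPR-Cas9 and a single guide, with small frameshift deletions on both alleles in the homeodomain part of the second exon of *Evx1*. Both grew for 4 days with serum but no LIF (the cytokine that holds mESCs undifferentiated), and each group has 3 libraries from differentiations begun on separate days. EVX1-Δfs is 1 clone, so the edit and other differences of that clone from its parental line cannot be told apart.

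VEGF-A is the main growth factor for endothelial cells. It signals through KDR, whereas FLT1 binds it tightly, has a weak kinase and limits the ligand that reaches KDR. TEK and TIE1 form the angiopoietin receptor system that later stabilises vessels, and endoglin assists the receptors for BMP9 and BMP10 on endothelium. VE-cadherin (*Cdh5*), PECAM1, ESAM and claudin 5 hold endothelial cells to each other. In the gastrulating mouse embryo *Kdr* marks mesoderm that leaves the posterior primitive streak and gives rise to blood, vessels and heart, and *Pecam1* is also expressed by undifferentiated embryonic stem cells.

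The genes split between genotypes. *Kdr* and *Eng* were lower in EVX1-Δfs EBs, *Flt1* was higher, and the other 7 did not pass the test. At an adjusted p under 0.05 in limma (a linear model with a moderated error, fitted across all 13136 genes), 2 of the 10 were therefore called lower and 1 higher, against 2.95% of all genes tested called lower and 2.08% called higher. In 4 of the 10 genes the libraries of the genotypes did not overlap. *Kdr* and *Eng* were lower in every EVX1-Δfs library than in any wildtype library, which was so for 14.7% of all genes tested. *Flt1* and *Cldn5* were higher in every one, which was so for 12.2%. The median log2 fold change over the 10 genes was -0.20, and the sign of the change was not shared, with 6 values below 0 and 4 above.

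Reads assigned to genes numbered 7597879 to 9914471 per library. *Evx1* itself had 2176 to 2400 normalized counts in wildtype EBs and 2012 to 2516 in the clone, and since a frameshift is not seen in gene counts, the genotype could not be checked from them. Wildtype replicate 2 gave the highest wildtype value for all 10 genes, which held for 30.9% of all genes tested and was noticed after the values were seen. Calls among the genes named that are lost without that library are given with it left out. In EBs of mixed cell types, fewer cells of a type and less RNA per cell cannot be told apart.

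The regions before the start of the 3 genes called are shown first. They are the 250 bases upstream of the RefSeq start, taken from a RefSeq promoter table and placed by exact match on NCBIM37, the assembly of mm9 to which the reads were mapped. Each is written 5′ to 3′ in the direction of its gene. *Kdr* (chromosome 5, 76328852 to 76374483) is read from the minus strand, and its upstream region is chr5:76374481-76374730. *Flt1* (chromosome 5, 148373180 to 148537587) is read from the same strand, with its upstream region at chr5:148537588-148537837. *Eng* (chromosome 2, 32502115 to 32538189) is read from the plus strand, with its upstream region at chr2:32501865-32502114. Capitals mark matches, on either strand, to GGAAG (the core bound by ETS factors) or GCGTG (a core bound by hypoxia-inducible factors).
Kdr: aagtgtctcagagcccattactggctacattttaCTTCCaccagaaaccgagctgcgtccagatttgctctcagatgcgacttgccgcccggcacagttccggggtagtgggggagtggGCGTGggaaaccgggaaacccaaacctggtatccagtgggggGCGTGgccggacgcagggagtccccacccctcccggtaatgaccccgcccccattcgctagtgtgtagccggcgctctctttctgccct
Flt1: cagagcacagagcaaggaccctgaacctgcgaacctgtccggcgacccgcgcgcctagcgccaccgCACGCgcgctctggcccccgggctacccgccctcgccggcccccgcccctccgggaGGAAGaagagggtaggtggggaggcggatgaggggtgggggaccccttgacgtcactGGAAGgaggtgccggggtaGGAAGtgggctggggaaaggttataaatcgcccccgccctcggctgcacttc
Eng: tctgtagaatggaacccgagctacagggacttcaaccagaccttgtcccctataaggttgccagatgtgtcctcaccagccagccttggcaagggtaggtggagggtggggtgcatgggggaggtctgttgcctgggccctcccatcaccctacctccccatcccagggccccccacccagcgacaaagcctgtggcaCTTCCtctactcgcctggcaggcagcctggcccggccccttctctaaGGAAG

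The ETS core GGAAG was found 1 time in the *Kdr* region, 3 times in that of *Flt1* and 2 times in that of *Eng*. It stands in 64.1% of the 32841 promoters of the table. GCGTG was found 2 times for *Kdr* and 1 time for *Flt1*, and stands in 28.2% of promoters. A further hypoxia core, ACGTG (16.6% of promoters), the homeodomain core TAATTA (4.84%) and the GATA core AGATAA (9.99%) had no match in these 3 regions, and TAATTA had none in the promoters of the 7 genes of the group that the table held. The *Flt1* region was the most GC-rich, with 70.4% G or C and 23 CpG pairs, against 61.6% and 16 pairs for *Kdr* and 62.4% and 4 pairs for *Eng*. Promoters of *Cdh5*, *Pecam1* and *Esam* were not printed. A match of letters is a description of the sequence and was not tested for binding.

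*Kdr*, the receptor that carries the VEGF signal, was the most abundant of the genes. Its normalized count (reads per gene divided by a library size factor) was 1877, 2415 and 1669 in the wildtype libraries, named here and below in the order of their replicate numbers, against 976, 1118 and 1052 in the EVX1-Δfs libraries. Every EVX1-Δfs library lay below every wildtype library, and the means were 1987 ± 385 and 1048 ± 71.1 (SD, n = 3 each), a ratio of 0.528. The log2 fold change of EVX1-Δfs over wildtype was -0.91 ± 0.13 (SE, adjusted p = 2.03e-04 in limma). The same-numbered pairs gave log2 differences of -0.94, -1.11 and -0.67. Without wildtype replicate 2 the log2 fold change was -0.76 (adjusted p = 0.00149 in limma).

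*Flt1*, the receptor that restrains VEGF-A, moved the other way. Normalized counts of 161, 205 and 176 in wildtype stood against 302, 317 and 293 in EVX1-Δfs EBs, and every EVX1-Δfs library lay above every wildtype library. The means were 181 ± 22.6 and 304 ± 11.9 (SD, n = 3 each), a ratio of 1.68. The log2 fold change was 0.75 ± 0.14 (SE, adjusted p = 0.00413 in limma), and the pairs gave 0.90, 0.62 and 0.73. *Flt1* is transcribed into a membrane-bound and a soluble form, which counts per gene do not separate.

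**Figure D1:**
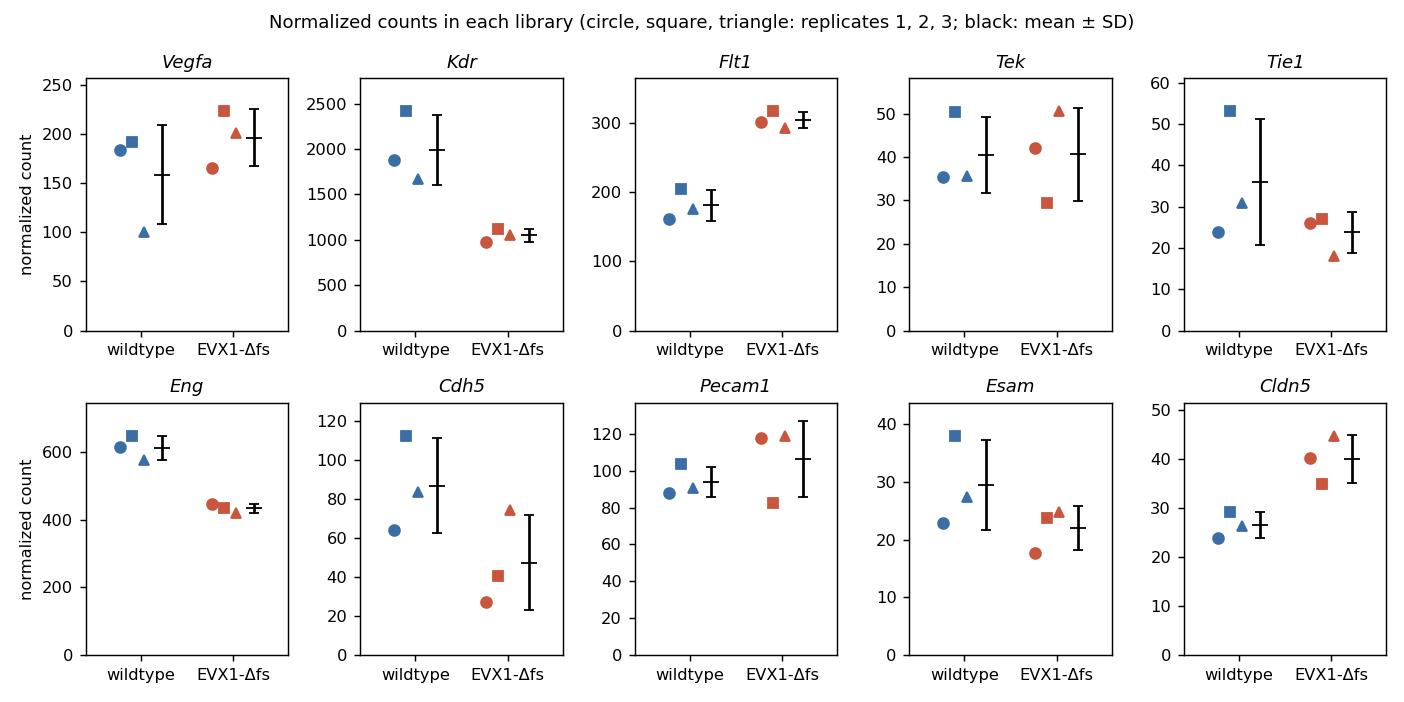
Normalized count of each gene (vertical axis, from 0) in the 3 wildtype (blue) and 3 EVX1-Δfs (red) libraries, with circles, squares and triangles for replicates 1, 2 and 3 and black bars for the mean ± SD. The EVX1-Δfs points lie below all wildtype points for Kdr (976 to 1118 against 1669 to 2415) and Eng, above them for Flt1 (293 to 317 against 161 to 205) and Cldn5, and overlap them for the other 6 genes.

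The ratio of the VEGF receptors therefore differed between genotypes. Per kilobase of annotated exon, the level of *Kdr* was 18.6, 18.7 and 15.1 times that of *Flt1* in the wildtype libraries and 5.15, 5.61 and 5.70 times that of *Flt1* in the EVX1-Δfs libraries. The genotypes did not overlap in this ratio, which was computed after both genes had been seen to differ and was given no test. Exon length counted all annotated exons of a gene (7278 bases for *Kdr*, 11583 for *Flt1*), and the forms of *Flt1* were not separated. The multiples are therefore not ratios of transcripts.

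*Vegfa* (chromosome 17, 46153942 to 46169326), the gene of the ligand, was not called. It had 184, 192 and 101 normalized counts in wildtype and 165, 223 and 201 in EVX1-Δfs, and the genotypes overlapped. Fitted as a log2 fold change, this was 0.35 ± 0.20 (SE), with bounds of -0.06 and 0.77 at 95% confidence and an adjusted p = 0.300 in limma. Wildtype replicate 3 was far below the other wildtype libraries, and without it the log2 fold change was 0.05 (adjusted p = 0.894 in limma). Of 14 genes known to be induced by hypoxia, as *Vegfa* is, 13 were tested and 0 were called in limma, with a median log2 fold change of -0.03. Their summed normalized count was 29180, 29304 and 40823 in the wildtype libraries and 28982 to 31576 in the EVX1-Δfs libraries. The sum is mostly *Ldha*, a glycolytic enzyme gene with 27160 normalized counts in wildtype replicate 3, and its part in the *Vegfa* values was not tested.

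Endoglin (*Eng*) fell by less than *Kdr* but with little spread. Its normalized counts were 614, 649 and 577 in wildtype and 446, 435 and 420 in EVX1-Δfs. The means were 613 ± 35.8 and 434 ± 13.1 (SD, n = 3 each), a ratio of 0.708, and the log2 fold change was -0.50 ± 0.12 (SE, adjusted p = 0.0182 in limma). The call was a narrow one. It was lost when any of wildtype replicates 1 and 2 and EVX1-Δfs replicates 1 and 3 was left out (adjusted p in limma of 0.0506, 0.0592, 0.0524 and 0.0836). It was also lost in edgeR's quasi-likelihood test with the replicate number, taken to mark the differentiation day, as a block (adjusted p = 0.0565).

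The exons of *Eng* are 57.2% G or C, against a median of 50.3% over the genes tested, and fold changes fell with GC content across all genes (Spearman's rho of -0.460 over 12977 genes, which are not independent). Once the trends with GC content and exon length were taken out, the log2 fold change of *Eng* was -0.35 and its limma adjusted p 0.111. *Eng* also shares 124 exon bases with *Ak1* on the same strand and 61 with *Fpgs* on the other, so reads there are uncertain for it. *Ak1* and *Fpgs* had log2 fold changes of -0.32 and -0.30, and neither was called (adjusted p in limma of 0.115 for each).

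The TIE receptors were low and did not pass the test. *Tek* (chromosome 4, 94405980 to 94541667), the angiopoietin receptor, had 35.4, 50.4 and 35.5 normalized counts in wildtype and 42.0, 29.3 and 50.5 in EVX1-Δfs. The genotypes overlapped fully, and the log2 fold change was -0.01 with a 95% interval from -0.56 to 0.55 (adjusted p = 0.990 in limma). *Tie1*, its partner receptor on the same chromosome (118143796 to 118162666), had 23.9, 53.1 and 30.9 against 26.1, 27.1 and 18.1 normalized counts. Its log2 fold change was -0.52 with a 95% interval from -1.18 to 0.14 (adjusted p = 0.332 in limma). Without wildtype replicate 2 the *Tie1* value was -0.21.

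Among the junction genes *Cdh5* had a mean ratio close to that of *Kdr* but a wide spread. VE-cadherin, its product, is the adhesion molecule of endothelial adherens junctions. *Cdh5* (chromosome 8, 106625525 to 106668402) had 64.1, 112 and 83.6 normalized counts in wildtype and 27.1, 40.6 and 74.3 in EVX1-Δfs. The log2 fold change was -0.94 ± 0.29 (SE), and the limma adjusted p of 0.0562 missed the threshold. EVX1-Δfs replicate 3 lay inside the wildtype range, and without it the log2 fold change was -1.32 (adjusted p = 0.00829 in limma). It was also called without wildtype replicate 1 (adjusted p = 0.0368 in limma), with a pseudocount of 16 in place of 1 (adjusted p = 0.0496 in limma) and in edgeR over all genes with any read (adjusted p = 0.00530). In DESeq2 the adjusted p was 0.0842.

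*Esam* (chromosome 9, 37335663 to 37345904), which encodes an adhesion molecule of endothelial tight junctions, had 23.0, 38.1 and 27.5 normalized counts in wildtype and 17.7, 23.7 and 24.8 in EVX1-Δfs. Its log2 fold change was -0.39 with a 95% interval from -1.02 to 0.25 (adjusted p = 0.474 in limma). *Pecam1* (chromosome 11, 106515531 to 106611942) had 88.0, 104 and 90.5 against 118, 82.3 and 119 normalized counts, with 2 EVX1-Δfs libraries above and 1 below all wildtype libraries. Its log2 fold change was 0.16 with a 95% interval from -0.23 to 0.56 (adjusted p = 0.656 in limma).

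*Cldn5* (chromosome 16, 18776940 to 18778353), whose product seals endothelial tight junctions, had 23.9, 29.2 and 26.3 normalized counts in wildtype EBs and 40.1, 35.0 and 44.8 in EVX1-Δfs. The genotypes did not overlap, yet the limma adjusted p of 0.197 was far from the threshold. The 95% interval of the log2 fold change, 0.57 ± 0.27 (SE), ran from 0.02 to 1.12. These values rest on 23 to 47 reads per library, for which counting alone gives a coefficient of variation of 14.6% to 20.9%.

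**Figure D2:**
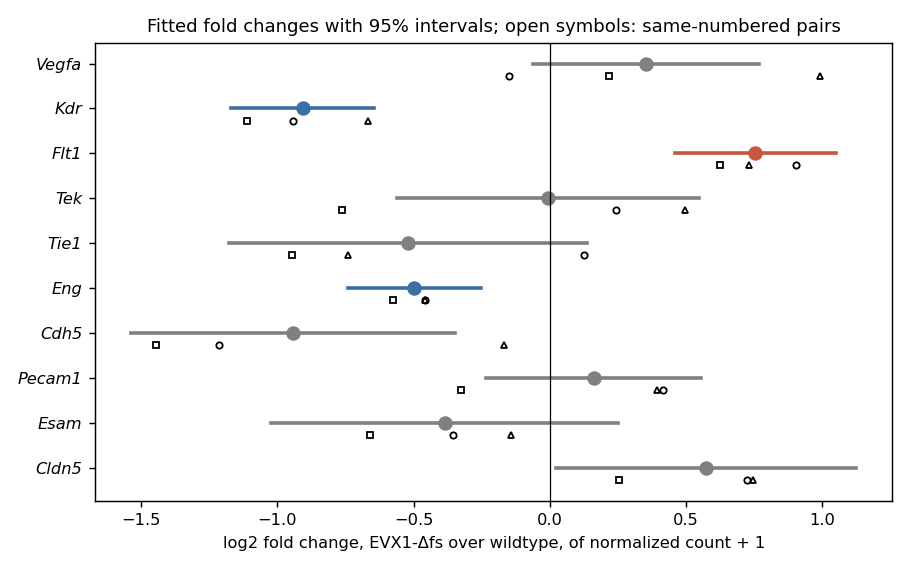
Fitted log2 fold change of EVX1-Δfs over wildtype (filled circle) with its 95% interval (line) for each gene, on the scale of normalized count + 1, and the 3 same-numbered pairs as open circles, squares and triangles. Blue (Kdr at -0.91, Eng at -0.50) and red (Flt1 at 0.75) mark genes called lower and higher in limma, and grey marks genes not called, of which Cdh5 at -0.94 and Cldn5 at 0.57 have intervals that leave out 0.

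Depth differed widely between the genes. *Kdr* rested on 991 to 2729 reads per library and *Eng* on 386 to 733. *Esam*, *Tie1*, *Cldn5* and *Tek* rested on 19 to 60 reads, and their 95% intervals are each over 1 log2 unit wide, wider than would show a difference of the size seen for *Eng*. The interval of *Cdh5*, with 29 to 127 reads, was also over 1 log2 unit wide. The coefficient of variation of *Tie1* was 42.3% in wildtype and 20.7% in EVX1-Δfs, against 12.9% to 22.9% from counting alone. That of *Cdh5* was 28.0% and 51.4%, above its 8.87% to 18.6% from counting. That of *Cldn5* was 9.99% and 12.3%, below its 14.6% to 20.9%. Spread beyond counting error was thus seen for some of these genes and not for others, and was not tested.

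**Figure D3:**
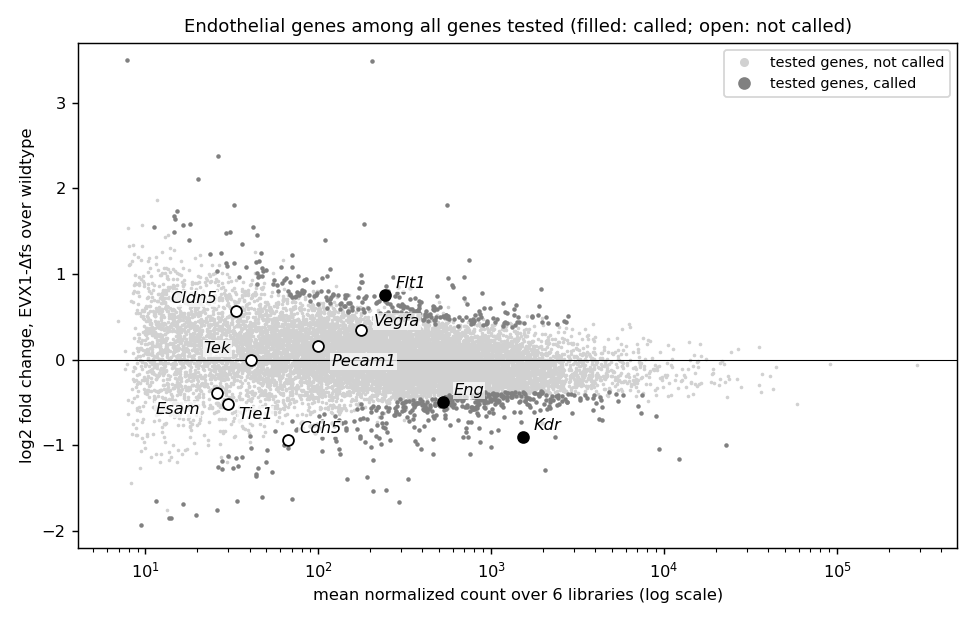
Log2 fold change of EVX1-Δfs over wildtype against the mean normalized count (log scale) for the 13136 genes tested, with genes called in limma in dark grey and the 10 endothelial genes as circles, filled where called. Kdr, Eng and Flt1 lie at the edge of or beyond the cloud of genes of like abundance, while Tek, Tie1, Esam and Cldn5, with the lowest means, lie inside a wide cloud.

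Levels were also compared between genes, per kilobase of annotated exon, counted over all annotated exons of a gene. In wildtype EBs *Kdr* stood at 273 ± 52.9 normalized counts per kilobase and *Eng* at 158 ± 9.25 (SD, n = 3 each). *Vegfa* followed at 37.0 ± 11.8. *Pecam1*, *Cdh5* and *Cldn5* were at 21.8 ± 1.93, 21.7 ± 6.09 and 18.7 ± 1.87, which do not differ beyond their spread, and *Flt1* was at 15.6 ± 1.95. *Esam*, *Tek* and *Tie1* closed the order at 10.3 ± 2.70, 8.58 ± 1.84 and 7.32 ± 3.10, again within their spread. In EVX1-Δfs EBs *Kdr* and *Eng* still led, at 144 ± 9.76 and 112 ± 3.38. *Vegfa* followed at 45.8 ± 6.82, and *Cldn5*, *Flt1* and *Pecam1* stood at 28.3 ± 3.48, 26.2 ± 1.03 and 24.7 ± 4.83, which do not differ beyond their spread. *Cdh5* was at 11.9 ± 6.10, and *Tek*, *Esam* and *Tie1* were at 8.62 ± 2.26, 7.70 ± 1.32 and 4.83 ± 1.00.

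*Kdr* and *Flt1* kept their calls in every fit run. Both were called in all 15 other fits that kept every library and in all 6 fits that left out 1 library. The log2 fold change ranged from -1.02 to -0.76 for *Kdr* and from 0.65 to 0.85 for *Flt1* over these 21 fits. With the replicate number, taken to mark the differentiation day, as a block in limma, 2 of the 10 genes were called lower and 1 higher. This stood against 1.11% and 0.579% of all genes tested, and the limma adjusted p of *Eng* was 0.0498. DESeq2 with default settings, the test the study used, called the same 3 genes, against 4.45% of all genes lower and 2.44% higher. With the GC and length trends removed, 1 gene (*Kdr*) was called lower and 1 (*Flt1*) higher, against 1.16% and 0.825%.

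**Figure D4:**
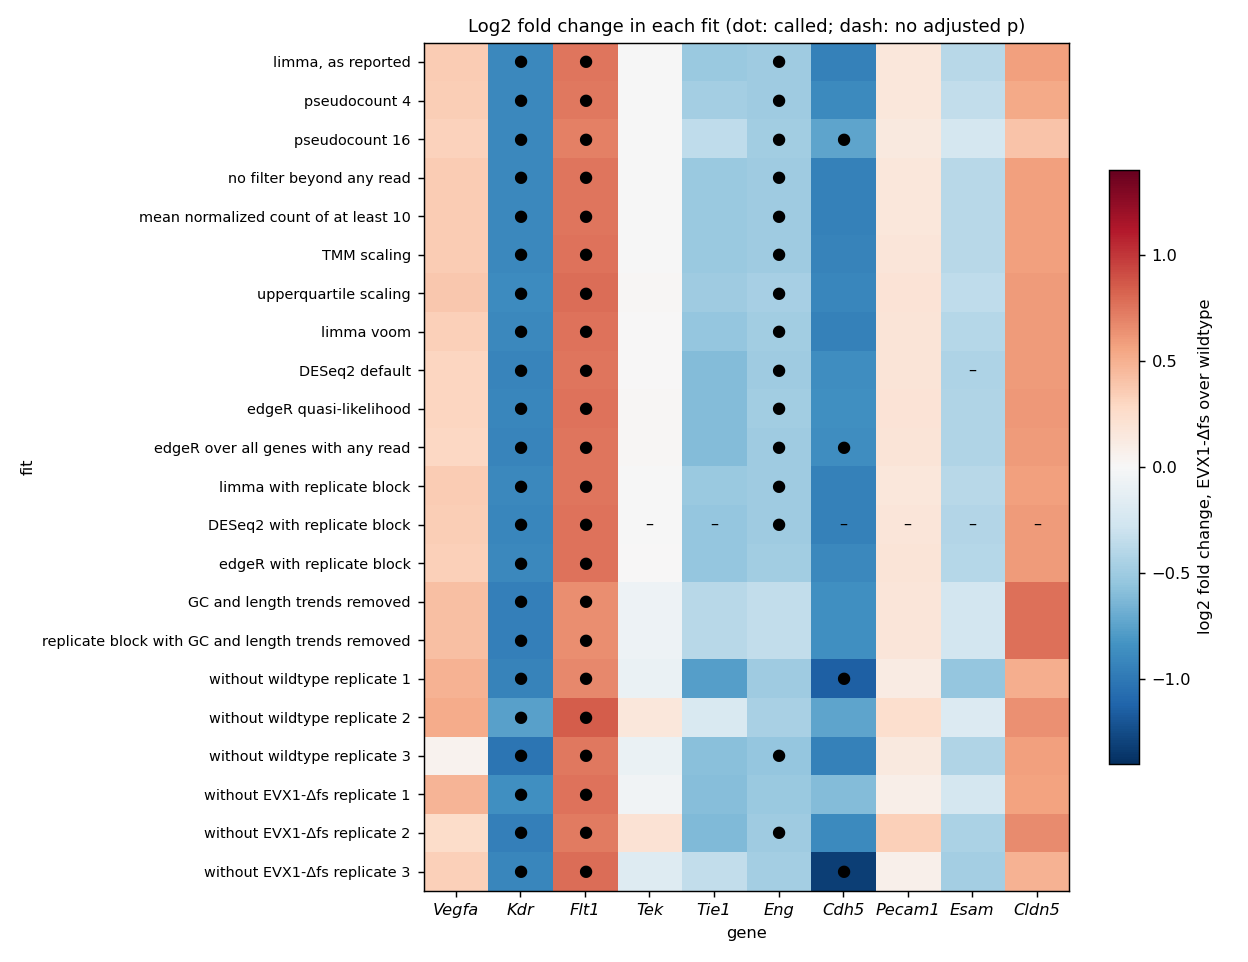
Log2 fold change of EVX1-Δfs over wildtype (colour, blue lower and red higher) of each gene (columns) in each fit (rows), with a dot where the gene was called at an adjusted p under 0.05 and a dash where no adjusted p was given. Kdr and Flt1 carry a dot in every row, Eng in 14 of the 21 rows below the first, and Cdh5 in 4.

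Partners of these genes in the same pathways were taken from 6 lists of 56 genes, of which 41 were tested. Of those, 1 was called higher and 0 lower in limma, against 2.08% and 2.95% of all genes tested. Their median log2 fold change was -0.04, against 0.00 over all genes tested. The 7 other VEGF family ligands and receptors, among them *Flt4*, the receptor for VEGF-C, and *Nrp1*, a co-receptor, were all tested and 0 were called, with log2 fold changes from -0.27 to 0.22. *Flt4* had 446 ± 42.8 normalized counts in wildtype EBs and 393 ± 27.1 in the clone (SD, n = 3 each), a log2 fold change of -0.18 (adjusted p = 0.415 in limma). Of the 7 adaptors that couple KDR to its downstream kinases and lipases 6 were tested and 0 called, with log2 fold changes from -0.32 to 0.11.

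The angiopoietins and BMP9 had few or no reads. The angiopoietin genes *Angpt1* and *Angpt4* had at most 2.86 and 0 normalized counts in a library, and *Angpt2* had 8.61 to 18.6 in wildtype and 4.51 to 8.40 in EVX1-Δfs EBs, below the filter. *Ptprb*, which encodes the phosphatase of TEK and VE-cadherin, was the 1 gene of its list tested, and its log2 fold change was -0.35 (adjusted p = 0.144 in limma). Of the 8 endoglin and ALK1 partners 6 were tested and 0 called, and *Gdf2* (BMP9) had 0 reads in all 6 libraries. *Acvrl1* (ALK1) was at 13.1 to 23.0 normalized counts.

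Of 15 junction partners (catenins, scaffolds and other cadherins and JAM proteins) all 15 were tested, with a median log2 fold change of -0.02. *Ocln*, which encodes occludin of tight junctions, was the 1 gene called, and it was higher: 56.4, 56.6 and 60.7 normalized counts in wildtype against 98.0, 94.7 and 115 in the clone, without overlap, and a log2 fold change of 0.81 (adjusted p = 0.0186 in limma). With the replicate number as a block the limma adjusted p was 0.0515. The call was also lost without EVX1-Δfs replicate 1 or 3 (0.0579 and 0.109) and with the GC and length trends removed (0.0722). The junction partner *Jup*, with a log2 fold change of -0.38, missed the threshold in limma (adjusted p = 0.0533) and passed it in DESeq2 (adjusted p = 0.0217). Of 15 other claudin genes 6 were tested and 0 called, with log2 fold changes from -0.24 to 0.14.

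Whether the label endothelial fits these EBs was checked with 24 further endothelial genes. *Emcn*, *Lyve1* and *Clec14a*, markers of formed endothelium, reached at most 0.885, 0.957 and 2.80 normalized counts in any library, and *Icam2* at most 5.72. All 24 were listed and 14 were tested. The 10 not tested reached at most 15.8 normalized counts (*Cd34*). Others of the list were detected in every library, such as *Rasip1* (95.2 to 209 normalized counts), *Notch4* (82.3 to 152), *Ramp2* (73.8 to 111) and *Plvap* (59.5 to 82.3). The list was thus detected in part, and *Cd34*, *Rasip1*, *Notch4*, *Ramp2*, *Plvap* and the low genes were picked for naming after their values were seen.

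Of the 14 tested, 2 were called lower and 0 higher in limma, against 2.95% and 2.08% of all genes tested. The median log2 fold change was -0.50, and both calls held with the replicate number as a block. *Etv2*, the ETS factor that starts the endothelial and blood programme, had 630 ± 51.1 normalized counts in wildtype EBs and 295 ± 43.1 in the clone (SD, n = 3 each), a log2 fold change of -1.10 (adjusted p = 4.94e-05 in limma). *Egfl7*, which encodes a matrix protein secreted by endothelium, had 559 ± 45.9 and 357 ± 59.8 (SD, n = 3 each), a log2 fold change of -0.66 (adjusted p = 0.00822 in limma). The *Egfl7* call was lost without EVX1-Δfs replicate 3 (0.0556) and with the GC and length trends removed (0.0517). The ETS gene *Fli1*, at -1.14, was not called in limma (adjusted p = 0.0566, and 0.0970 with the replicate number as a block). It passed the threshold in DESeq2 (adjusted p = 0.0397). The summed normalized count of the 24 genes was 1912 to 2103 in wildtype and 1154 to 1352 in EVX1-Δfs libraries. *Etv2* and *Egfl7* are the largest parts of that sum, so it largely repeats their calls and does not describe the whole list. *Robo4*, *Sox7*, *Sox18*, *Fli1* and *Rasip1*, not called in limma, were also lower in every EVX1-Δfs library than in any wildtype library. That was so for 14.7% of all genes tested. For *Sox18* the gap was small, with 46.7 normalized counts in EVX1-Δfs replicate 1 against 46.9 in wildtype replicate 1. *Cd93* and *Dll4*, which were below the filter, were higher in every EVX1-Δfs library, against 12.2% of all genes tested.

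Other cell types that express members of the group were examined in the same way. Of 10 symbols taken for markers of FLK1-positive mesoderm 9 were listed and tested, and *Foxf1a*, an older symbol of *Foxf1*, was not listed. Among these 9, 6 were called lower and 0 higher, against 2.95% and 2.08% of all genes tested. The median log2 fold change was -0.89. The list was chosen with earlier results known, and the study had reported *Mesp1*, *Hand1*, *Bmp4* and *Snai1* as lower in these data. Its count is therefore not an independent result. *Gata4*, *Pdgfra* and *Tbx20*, at -0.38, 0.08 and 0.24, were not called. The largest changes among the 6 were in *Hand1*, *Mesp1*, *Mesp2* and *Snai1*, transcription factors of nascent and lateral mesoderm, with log2 fold changes of -1.28, -1.02, -0.95 and -0.90 and limma adjusted p of 9.36e-05, 1.81e-04, 0.0141 and 0.00116. With the replicate number as a block 4 of the 6 were called. *Mesp2* and *Foxf1* were not (*Foxf1* at 0.0574), and *Mesp2* had a limma adjusted p of 0.0628, as it had 0.0606 and 0.0790 without wildtype replicate 3 and EVX1-Δfs replicate 3. *Foxf1* and *Bmp4*, the remaining genes called, lost their calls without wildtype replicate 2 (log2 fold changes of -0.55 and -0.48, adjusted p of 0.0885 and 0.0623 in limma), without EVX1-Δfs replicate 1 (0.0674 and 0.106) and with the GC and length trends removed (0.172 and 0.0719). *Foxf1* also lost its call without EVX1-Δfs replicate 2 (0.0618). The sum of the list was 7278 to 9229 normalized counts in wildtype and 4133 to 4945 in EVX1-Δfs libraries, without overlap, and so moved with *Kdr*. *Hand1* is the largest part of that sum, with means of 2925 in wildtype and 1185 in EVX1-Δfs. The part of the list in the *Kdr* result was not tested.

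Of 13 blood genes 7 were tested and 2 were called lower, against 2.95% of all genes tested. These were *Gata2* and *Lmo2*, which encode a transcription factor and its bridging partner in blood and endothelial precursors. Their log2 fold changes were -0.96 and -0.64, with limma adjusted p of 0.00408 and 0.0167. *Lmo2* lost its call when wildtype replicate 2 or EVX1-Δfs replicate 1 was left out (adjusted p of 0.0799 and 0.0759) or with the GC and length trends removed (0.0898). The sign was not shared over the blood genes tested, with a median log2 fold change of -0.49 and values from -0.96 to 0.67. *Gata1*, *Myb* and *Itga2b* lay above 0, at 0.67, 0.33 and 0.25. *Runx1* and *Tal1* lay below 0, at -0.62 and -0.49, and none of these was called in limma. The embryonic globin *Hbb-bh1* reached at most 8.58 normalized counts, and *Hbb-y*, *Hba-a1* and *Ptprc* had 0 reads in all 6 libraries.

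*Pecam1* was read beside the pluripotency genes. Of 12 such genes all 12 were tested, and 2 were called higher and 0 lower, against 2.08% and 2.95% of all genes tested. The median log2 fold change was 0.34. *Tfcp2l1*, a factor of naive stem cells, had a log2 fold change of 0.79 (adjusted p = 0.0265 in limma), and the growth factor gene *Fgf4* had 0.60 with 0.0221. Both lost the call with the replicate number as a block (adjusted p in limma of 0.0574 and 0.0579). They also lost it when replicate 1 of either genotype or the third EVX1-Δfs library was left out (adjusted p in limma from 0.0613 to 0.0976). *Tfcp2l1* also lost it without EVX1-Δfs replicate 2 (0.0714) and with the trends removed (0.0722). *Fgf4* kept its call with the trends removed (adjusted p = 0.0159 in limma). The sum of the list was 13926 to 20506 normalized counts in wildtype and 15889 to 19125 in EVX1-Δfs libraries, which overlap, and is mostly *Pou5f1* and *Tdgf1*. *Nanog*, *Sox2*, *Zfp42* and *Esrrb*, further genes of naive or general pluripotency, were each higher in every EVX1-Δfs library than in any wildtype library. That was so for 12.2% of all genes tested. *Nanog*, *Sox2*, *Zfp42* and *Esrrb* missed the threshold in limma (adjusted p from 0.0544 to 0.0559) and passed it in DESeq2 (adjusted p of 0.0293, 0.0346, 0.0442 and 0.0414). With the trends removed *Sox2* and *Esrrb* passed it in limma (adjusted p of 0.0257 and 0.0299), and *Nanog* and *Zfp42* did not (0.127 and 0.0926). *Klf2* and *Klf4* were also higher in every EVX1-Δfs library but passed neither test (adjusted p of 0.225 and 0.475 in limma, 0.240 and 0.581 in DESeq2). *Pou5f1*, *Tdgf1*, *Utf1* and *Dppa4* overlapped between genotypes and were not called, with log2 fold changes of -0.04, -0.05, 0.03 and 0.14. The part of these genes in the level of *Pecam1* was not tested.

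*Flt1* and *Vegfa* are also expressed outside the mesoderm, in trophoblast and visceral endoderm. The trophoblast genes *Prl3d1* and *Prl2c2* had 0 reads in all 6 libraries. Of the 8 trophoblast genes 3 were tested and 2 were called lower, against 2.95% of all genes tested. These were *Hand1* and *Cdx2*, which are also genes of posterior mesoderm. *Cdx2* had a log2 fold change of -0.70 (adjusted p = 0.00903 in limma), which was 0.0575 with the GC and length trends removed. The visceral endoderm genes *Afp*, *Ttr* and *Apoa1* were below the filter. Of 12 such genes 6 were tested and 2 called higher, against 2.08% of all genes tested. These were *Foxa2* and *Sox17*, transcription factors that definitive endoderm also expresses. Their log2 fold changes were 1.09 and 0.91, with limma adjusted p of 0.0159 and 0.0334.

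Neither *Foxa2* nor *Sox17* was called with the replicate number as a block (adjusted p in limma of 0.0667 and 0.0564). Both also lost the call when the first or second EVX1-Δfs library was left out (adjusted p in limma from 0.0691 to 0.133). *Sox17* was also not called without wildtype replicate 1 or 3 (0.121 and 0.0505). With the GC and length trends removed *Foxa2* and *Sox17* stayed called (adjusted p in limma of 0.00684 and 0.0422). The tested visceral endoderm genes had a median log2 fold change of 0.21. *Rbp4* and *Gata6* lay below 0, at -0.82 and -0.38, and *Cubn* and *Dab2* were at 0.21 each. None of these was called in limma. The sum of the visceral endoderm list was 489 to 619 normalized counts in wildtype and 486 to 696 in EVX1-Δfs libraries, which overlap.

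**Figure D5:**
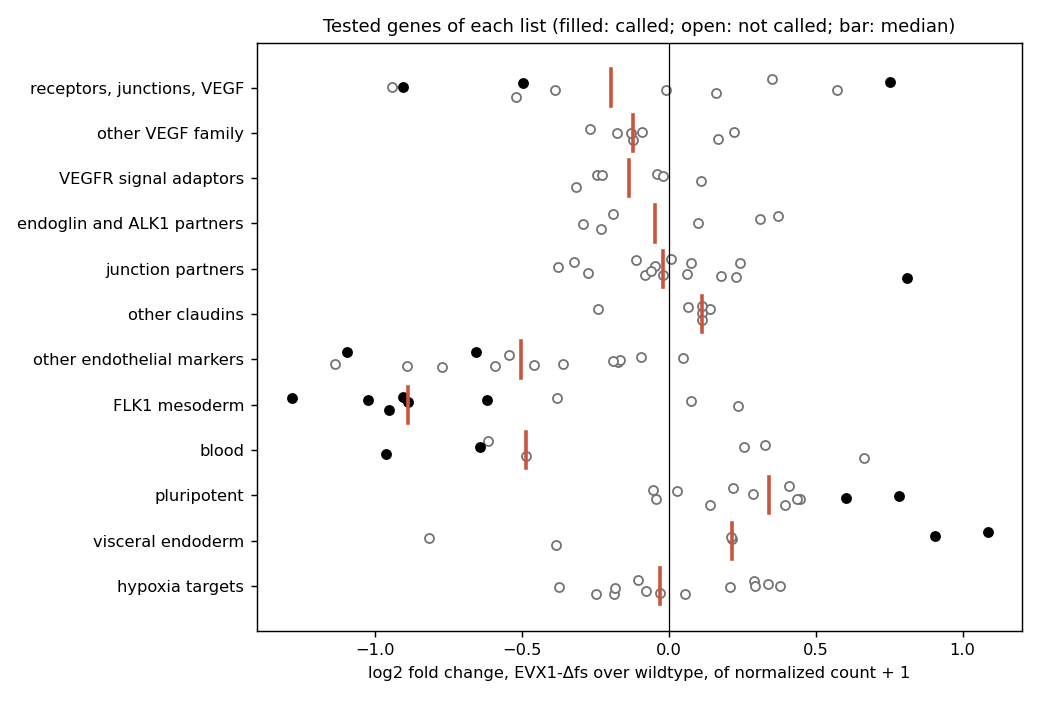
Log2 fold change of EVX1-Δfs over wildtype (horizontal axis) of the tested genes of each list, filled where called in limma and open where not, with a bar at the median of the list. The medians are -0.20 for the 10 endothelial receptor, junction and VEGF genes, -0.50 for other endothelial markers and -0.89 for FLK1 mesoderm, and lie between -0.13 and 0.11 for the partner lists shown. The angiopoietin and trophoblast lists, with 1 and 3 tested genes, are not drawn.

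Genes whose pattern over the 6 libraries was most like that of *Kdr* were found by the root-mean-square difference between centred log2 values, among 10624 tested genes with a mean of at least 50 normalized counts. The nearest were *Tmem119*, *Efnb1*, *Smad6*, *Tbx3* and *Fn1*, with differences of 0.089, 0.090, 0.11, 0.11 and 0.11 log2 units. Within the group *Eng* was nearest at 0.24 and *Flt1* farthest at 0.84. *Smad6* encodes an inhibitor of BMP signalling, *Tbx3* a T-box factor, *Efnb1* an ephrin ligand and *Fn1* the matrix protein fibronectin. The log2 fold changes of the 5 lay between -1.02 (*Tmem119*) and -0.72 (*Tbx3*). All 5 were called lower in limma, as likeness to *Kdr* over these libraries nearly requires, and *Efnb1* was not called with the trends removed (adjusted p = 0.0511 in limma).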

How the data were processed

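Per the study's methods and the labels, mRNA was selected, sequenced on an Ion Proton, aligned to mm9 (TopHat2, then TMAP) and assigned to genes by HTSeq at standard settings. Versions, annotation and strand setting are not given in the sources used here. The deposited values are a signal that is never negative: gene counts that the authors divided by 1 size factor per library. All values came out as whole reads (100% within 0.01 of a read).

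The study's test, DESeq2 on counts, was replaced for this unit by limma (version 3.58.1, R 4.3.3, mean-variance trend) on log2(normalized count + 1), which understates changes of low genes, over genes with at least 10 normalized counts in at least 3 libraries, with Benjamini-Hochberg adjustment over all genes tested. DESeq2 (1.42.0) and edgeR (4.0.16) on recovered reads, other pseudocounts, filters and scalings, removal of GC and length trends (splines of 5 degrees of freedom) and leaving out each library were alternatives. Fits were tested on simulated data.

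The series design states that paired differentiations were set up side by side, each on its own day, so the replicate number was taken to mark the day. Deviations of same-numbered libraries correlated at 0.111, 0.00933 and -0.101 over 13136 genes. Those of wildtype and EVX1-Δfs libraries with different numbers correlated at -0.141 to 0.131. Same-numbered libraries were thus no more alike than others, and these values do not show that the number marks the day. Nothing else ties libraries to separate cultures.

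Positions, exon length and GC content came from GENCODE vM1 on NCBIM37 (94.3% of symbols matched). Members and lists were chosen with earlier results of these data known, and the promoter motifs after the sequences were seen. All members are named. The plan was to name the called genes of each list, at most 4 per list by size of change, and the 5 genes nearest *Kdr*. Further list genes, among them *Foxf1*, *Bmp4* and genes not called, were named after their values were seen.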

Additional observations from a re-analysis of the deposited data

How the results depend on the processing

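Over the alternatives, 184 of 203 log2 fold changes of the 10 genes kept their direction and side of the threshold, 7 (all of *Eng*) lost the call, 4 (all of *Cdh5*) gained it and 8 (all of *Tek*, never called) changed sign. The adjusted p ranged over the alternatives from 0.00376 to 0.142 for *Eng* and from 0.00530 to 0.242 for *Cdh5*. *Tek* was at 0.0197 with upper-quartile scaling, 0.00747 with voom, 0.00706 in DESeq2, 0.0185 in edgeR, 0.0112 in edgeR over all genes with any read and 0.00996 in edgeR with the replicate block, and ranged from -0.179 to 0.203 over fits that left out 1 library. DESeq2 gave no adjusted p for *Esam*, and with the block none for 6 of the 10 genes.

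Of the 10 genes, those called lower numbered 1 in edgeR with the replicate block, 1 with the GC and length trends removed and 1 with both the block and removal, and from 1 to 2 with 1 library left out. The number called higher stayed at 1 throughout. Over all genes, edgeR on all genes with any read called 530 higher and 625 lower, against 273 and 387 in the main result. With the replicate block limma called 76 and 146, DESeq2 77 and 207 and edgeR 66 and 127. With the trends removed 107 were higher and 150 lower, and with the block as well 49 and 91. With 1 library left out, from 80 to 340 genes were higher and from 140 to 362 lower. The fewest higher came from leaving out EVX1-Δfs replicate 3, the fewest lower from leaving out EVX1-Δfs replicate 1, and counts moved by over 1.5 times also when wildtype replicate 3 (134 and 244) or, for lower genes, wildtype replicate 1 (236) was left out. Upper-quartile scaling gave 370 higher and 325 lower. Fits that leave out a library have fewer samples, and the cause of the other shifts was not tested. In limma the block changed no call among the 10 genes. Low counts limit *Tek*, *Tie1*, *Esam* and *Cldn5*.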
